A study of Mus musculus with 8 samples.

Results

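The EGR, FOS and JUN genes are immediate early genes, which cells transcribe soon after a stimulus without needing new protein. The set described here is Egr1, Egr2, Egr3, Egr4, Fos, Fosb, Fosl1, Fosl2, Jun and Junb, chosen by gene symbol. These 10 genes were measured by 12 rows of an expression array table with 22206 rows, since Egr3 had 3 rows and every other gene had 1. The array held 19505 distinct gene symbols.

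Each array measured total RNA from the left ventricle of a male mouse of strain C57/BL6J aged 8 weeks and described as untreated. The wild type group had 4 arrays, and the miR-100 group had 4 arrays from mice with cardiac-specific overexpression of microRNA-100. The promoter that drives the overexpression, the number of transgenic lines and the time of tissue collection are details not given in the sources used here. Replicates are taken as separate mice from the design, and p-values cover only the spread between these samples.

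Stretch, adrenergic stimulation, growth factors and ischaemia activate kinase cascades in heart cells that act on factors already bound at immediate early promoters, chiefly SRF with its ELK partners and CREB. FOS and JUN proteins pair through leucine zippers to form the dimers called AP-1, whereas EGR proteins bind GC-rich DNA through zinc fingers. The transcripts are short-lived, and in an unstimulated ventricle their levels are usually low. MicroRNA-100, whose own level is not analysed here, recognises messenger RNAs mainly through the bases called its seed, shown in capitals in the mature strand.

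mmu-miR-100-5p: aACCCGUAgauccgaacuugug

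No EGR, FOS or JUN row differed between the groups past the threshold, an adjusted p under 0.05 by limma with Benjamini-Hochberg adjustment over all 22206 rows. The largest difference was that of Egr1, whose mean was 2.41-fold lower in miR-100 hearts, with a limma adjusted p of 0.330. Wild type replicate 3 had as little Egr1 as the miR-100 arrays. Fosb and Fosl1 stood high in wild type replicate 2 and nowhere else. Of the 12 rows, 0 passed, against 0.14% of all rows (0.0946% higher and 0.045% lower in miR-100 hearts). Differences lay below 0 in 9 of the 12 rows, against 53.0% of all rows. At an unadjusted p under 0.05 there were 2 of the 12 rows, Egr1 and Egr2, both lower in miR-100 hearts, where the share of all rows was 7.73% (4.17% lower, 3.55% higher). In 0 of the 12 rows did the groups fail to overlap, against 4.54% of all rows (2.33% lower, 2.21% higher).

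Promoter sequences from RefSeq, build GRCm38.p6, were matched for 7 of the 10 genes, and those of Fos, Fosb and Egr2 are shown. Fos is the reference immediate early gene, Fosb had the widest spread of the members, and Egr2 had the second lowest unadjusted p. Each runs from 250 bases before to 50 bases after a start site, with matches to the searched motifs in capitals.

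Fos: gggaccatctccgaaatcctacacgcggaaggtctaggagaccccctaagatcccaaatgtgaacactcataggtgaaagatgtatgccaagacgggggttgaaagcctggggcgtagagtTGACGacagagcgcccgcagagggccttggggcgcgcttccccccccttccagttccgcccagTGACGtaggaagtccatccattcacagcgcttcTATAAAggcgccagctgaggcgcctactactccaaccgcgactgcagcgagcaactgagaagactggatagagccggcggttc
Fosb: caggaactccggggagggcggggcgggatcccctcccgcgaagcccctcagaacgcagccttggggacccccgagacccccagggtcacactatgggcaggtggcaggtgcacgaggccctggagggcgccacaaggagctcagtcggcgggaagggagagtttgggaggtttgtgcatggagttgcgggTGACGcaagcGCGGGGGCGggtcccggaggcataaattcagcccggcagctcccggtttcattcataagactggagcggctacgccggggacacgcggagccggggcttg
Egr2: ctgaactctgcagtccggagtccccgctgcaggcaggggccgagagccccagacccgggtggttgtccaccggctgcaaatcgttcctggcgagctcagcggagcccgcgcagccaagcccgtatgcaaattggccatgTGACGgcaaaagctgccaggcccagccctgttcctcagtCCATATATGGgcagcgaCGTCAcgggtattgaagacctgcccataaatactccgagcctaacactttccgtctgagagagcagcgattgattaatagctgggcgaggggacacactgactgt

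The Fos window is chr12:85473640-85473939 on the plus strand, the Fosb window chr7:19309996-19310295 on the minus strand, and the Egr2 window chr10:67537619-67537918 on the plus strand. Searched on both strands were TGACG, the core of the CREB site, its full form TGACGTCA, which contains that core, the AP-1 site TGACTCA, the EGR sites GCGTGGGCG and GCGGGGGCG, the TATA box TATAAA and the CArG box, which SRF binds. The 7 genes had 11 windows, since Egr2 had several start sites. The shares given are of windows, so counts of windows stand beside them. Some Egr2 windows, among them the one shown, overlap and hold the same TGACG and CArG sites. Counts of windows therefore count these sites more than once, and no excess over the shares is read from them. TGACG was present in 5 of the 7 genes. That is 7 of the 11 windows, with the Egr2 sites repeated, against 20.8% of all 32851 promoter windows of this length. In Fos TGACG began 129 and 66 bases before the start site, and in Fosb 60 bases before it. The EGR motif GCGGGGGCG was present in 2 of the 7 genes, Fosb and Fosl2. That is 2 of the 11 windows, against 2.91% of all windows, and in Fosb the motif began 50 bases before the start site. A CArG box was present in 1 of the 7 genes, Egr2, beginning 72 bases before the start site shown. It was in 4 of the 11 windows, all of Egr2 and some of them holding the same site, against 1.63% of all windows. TATAAA was present in 2 of the 7 genes, Fos and Junb, or 2 of the 11 windows, against 13.6% of all windows. TGACGTCA, TGACTCA and GCGTGGGCG were present in 0 of the 11 windows, against 1.79%, 5.20% and 0.612% of all windows. A match describes the letters in this window alone, and the serum response element for which Fos is known lies further upstream.

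All values are log2 signals, on which a step of 1 is a doubling. Column medians lay between 5.70 and 5.74, arrays correlated with each other at 0.988 to 0.993, and having 4 arrays a group limits precision. Heart muscle markers such as Myh6 and Tnnt2 were bright on every array, with a mean over 10 cardiomyocyte genes of 18.25 to 18.37. Some of these rows lay at or near 19.93, the highest value deposited, which 9 rows of the table reached. A rise in such rows may not show, so the narrow range says little about muscle content. Of 88 genes that mark other cell types a ventricle can hold, in 9 lists, 75 were measured and 0 were past the threshold (limma), and the array means of each list overlapped between the groups. For macrophages, which also transcribe immediate early genes, the range over 11 genes was 7.93 to 8.36 in wild type and 7.95 to 8.31 in miR-100 arrays. In whole tissue, fewer cells of a type and less RNA per cell cannot be told apart.

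Egr1 encodes the zinc finger factor through which growth factor and stretch signals reach their targets, and it was the EGR member with the largest difference between groups. Its log2 signals were 8.89, 9.50, 7.56 and 9.76 in wild type replicates 1 to 4 and 7.58, 7.91, 7.24 and 7.90 in the miR-100 replicates. Wild type replicates 1, 2 and 4 lay above every miR-100 array, while wild type replicate 3 lay inside the miR-100 range, so the groups overlapped.

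Egr1 averaged 8.93 ± 0.98 over the wild type and 7.66 ± 0.32 over the miR-100 arrays (SD, n = 4 each). The log2 difference was -1.27, with a moderated standard error (SE) of 0.37 and a 95% confidence interval of -2.07 to -0.47 (limma, unadjusted p = 0.00455, adjusted p = 0.330). From the row's own spread the SE would be 0.52. Limma lowers such a value toward the typical spread of the table. The exact permutation p, two-sided and from 70 possible assignments of 4 arrays, was 0.114, where the smallest p possible is 0.0286.

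Egr1 was the member whose call turned on a single array. Leaving out wild type replicate 3 gave -1.73 and the limma adjusted p 0.0240, past the threshold. In the other 7 fits that left out an array, the limma adjusted p ran from 0.435 to 0.549, and the difference from -1.35 without miR-100 replicate 2 to -0.99 without wild type replicate 4.

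**Figure D1:**
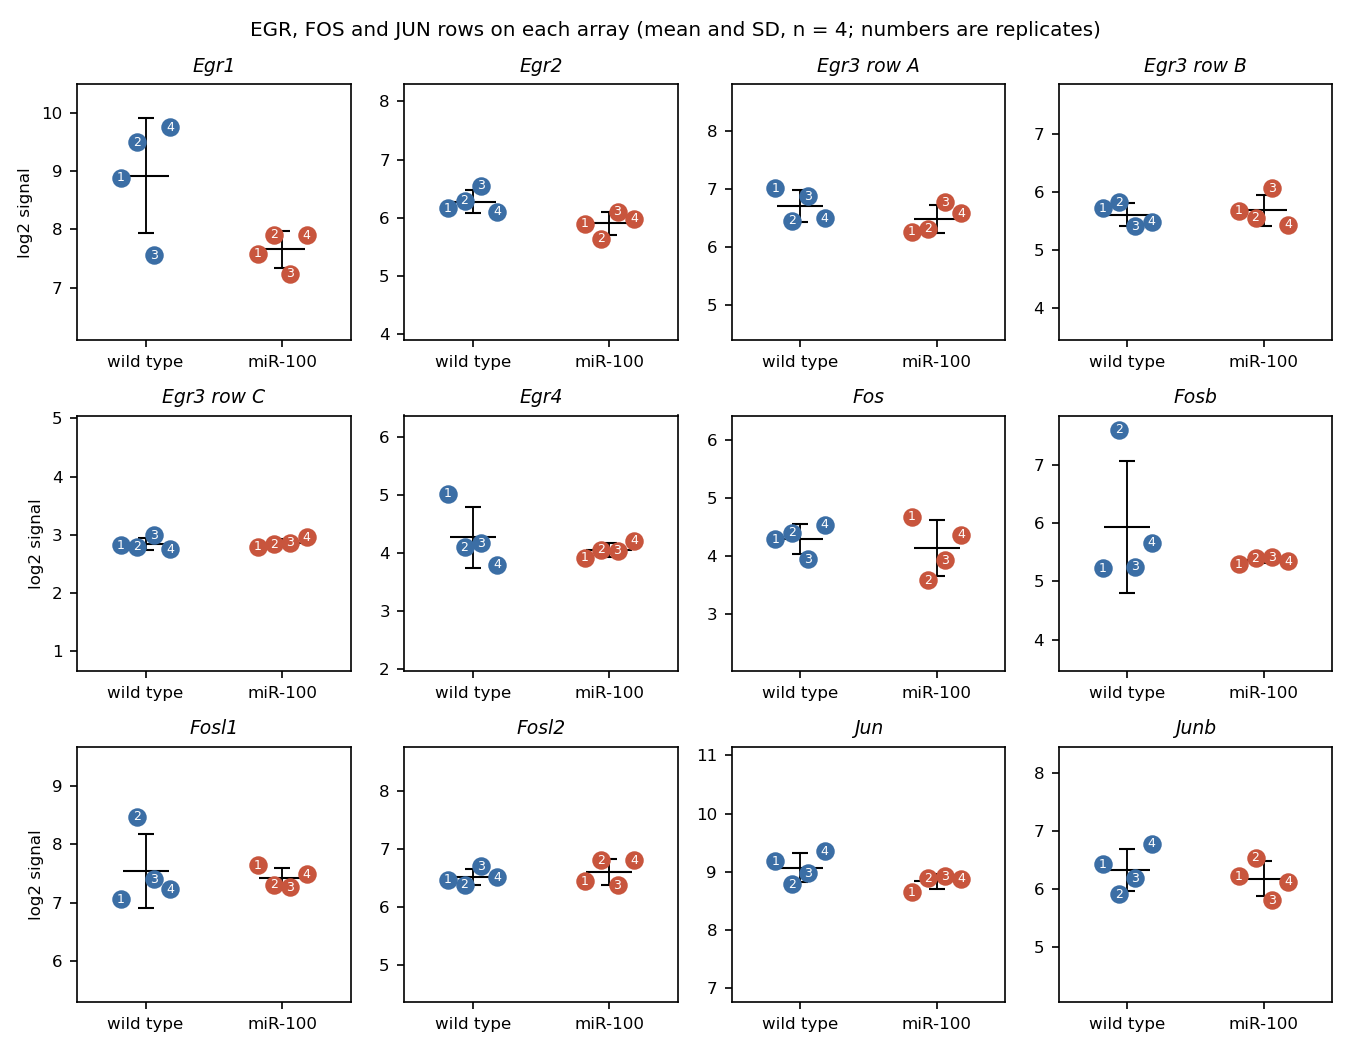
Log2 signal of each of the 12 rows in the 4 wild type arrays (blue) and 4 miR-100 arrays (red), numbered by replicate, with the group mean and SD in black and axes of equal span. In Egr1, wild type replicate 3 (7.56) lies among the miR-100 arrays, and in Fosb wild type replicate 2 (7.61) lies apart from the other 7 arrays.

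Egr2, an EGR factor known for its part in myelination and in fibroblast and immune cell responses, showed a smaller difference. The arrays read 6.16, 6.29, 6.55 and 6.10 in wild type and 5.90, 5.64, 6.10 and 5.98 in miR-100 arrays. The groups met at a single value, 6.10, which wild type replicate 4 and miR-100 replicate 3 shared. The difference was -0.37 (SE 0.16, 95% confidence interval -0.71 to -0.03), with an unadjusted p of 0.0358, an adjusted p of 0.601 by limma and a two-sided exact permutation p of 0.0571.

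Egr3, an EGR factor studied in muscle spindles and lymphocytes, was measured by 3 rows that did not follow each other. The brightest, TSUnmapped00000048.mm.2 and called row A here, had 7.01, 6.45, 6.87 and 6.49 in wild type and 6.26, 6.31, 6.77 and 6.58 in miR-100 arrays. Row B, TSUnmapped00000046.mm.2, ran from 5.41 to 5.82 in wild type and from 5.44 to 6.06 in miR-100 arrays. Row C, TC1400000990.mm.2, lay between 2.75 and 2.99 on all arrays, at percentile 0.158 of all row means.

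The Egr3 differences were -0.23 for row A (SE 0.18), 0.08 for row B (SE 0.17) and 0.03 for row C (SE 0.13), with limma adjusted p from 0.850 to 0.984. Over the 8 arrays Pearson's r was 0.11 between rows A and B, 0.43 between A and C and -0.38 between B and C, given as a description of rows from the same arrays. The annotation pairs each row with a different RefSeq transcript of the gene, so they need not measure the same RNA.

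Egr4, the EGR gene best known from neurons and germ cells, was dim on these arrays. Its log2 signal was 5.02 in wild type replicate 1 and between 3.80 and 4.21 on the other 7 arrays. It averaged 4.27 ± 0.52 over the wild type and 4.06 ± 0.12 over the miR-100 arrays (SD, n = 4 each), and the difference of -0.22 had a 95% confidence interval of -0.69 to 0.26 (limma adjusted p = 0.888). Without wild type replicate 1 the difference was 0.03.

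Fos encodes the founding FOS protein, which cannot bind DNA as a pair with itself and needs a JUN partner. Fos signals were 4.29, 4.40, 3.95 and 4.54 in wild type and 4.68, 3.59, 3.93 and 4.37 in miR-100 arrays. Both the highest and the lowest array belonged to the miR-100 group. The difference was -0.15 (SE 0.22, 95% confidence interval -0.63 to 0.33, limma adjusted p = 0.930, two-sided exact permutation p = 0.629). On the linear scale this interval runs from 0.644 to 1.26 times the wild type level.

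The Fos row stood at percentile 26.3 of all row means. As a guide to what dim rows look like, 1091 rows of olfactory receptor genes, taken for this purpose after the values were seen, had a median row mean of 3.86 and a 95th percentile of 5.05. Fos, Egr4 and row C of Egr3, 3 of the 12 rows, lay below that percentile. Probes differ in how well they bind, so signals of different rows are not compared here as amounts of RNA, and a difference in a dim row is compressed by background.

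Fosb, a FOS relative whose splice form deltaFosB is long-lived, had the widest spread of the 12 rows. Its log2 signals were 5.23, 7.61, 5.25 and 5.67 in wild type and 5.30, 5.40, 5.42 and 5.35 in miR-100 arrays. Wild type replicate 2 lay 1.94 above the next highest array, and the 4 miR-100 arrays lay within 0.12 of each other. Among all 22206 rows, 4 including Fosb had wild type replicate 2 at least this far above every other array. The group difference was -0.57 (SE 0.40, 95% confidence interval -1.44 to 0.30, limma adjusted p = 0.809, two-sided exact permutation p = 0.457), and -0.02 without wild type replicate 2.

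Fosl1 encodes FRA1, which lacks the transactivating end of FOS. It was highest in the same array, with 8.48 in wild type replicate 2 against 7.06 to 7.64 on the other 7 arrays. The difference was -0.12 (SE 0.26, 95% confidence interval -0.67 to 0.44, limma adjusted p = 0.956), and 0.20 without that array. Fosl2, which encodes FRA2 and has been followed in fibrosis, varied little, from 6.38 to 6.70 in wild type and from 6.37 to 6.80 in miR-100 arrays. Its difference was 0.09 (SE 0.16, 95% confidence interval -0.25 to 0.42, limma adjusted p = 0.945).

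Wild type replicate 2 was the lowest array in 0 of the 12 rows and the highest in 2, Fosb and Fosl1, while wild type replicate 4 was the highest in 3. Of the 43 other early response genes, wild type replicate 2 was the highest array in 7 and the lowest in 5. Wild type replicate 4 was the highest in 12, miR-100 replicate 2 in 8, miR-100 replicate 3 in 7 and each other array in 2 to 4. Ier2, a small nuclear protein gene named here after its values were seen, was highest in wild type replicate 2, at 7.17 against 5.35 to 6.39 elsewhere. Over the whole table, 22 rows stood more than 1 above all other arrays in wild type replicate 2 and 28 in miR-100 replicate 2, against 2 to 9 in each of the other 6 arrays. Wild type replicate 2 had the highest mean of the erythroid (5.91) and the adipocyte and mesothelial (4.35) lists. It had the lowest of the macrophage (7.93), nerve (4.04), heat shock (9.81), upstream factor (9.32) and AP-1 partner (7.05) lists, and their part in the Fosb and Fosl1 values was not tested.

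Jun encodes the AP-1 subunit that can pair with itself or with any FOS protein. Jun signals were 9.18, 8.78, 8.97 and 9.35 in wild type and 8.65, 8.89, 8.92 and 8.88 in miR-100 arrays. The lowest array was miR-100 replicate 1, the 2 highest were wild type, and the groups overlapped. The difference was -0.24 (SE 0.16, 95% confidence interval -0.58 to 0.11, limma adjusted p = 0.795, two-sided exact permutation p = 0.200).

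Junb encodes a JUN relative that is a weaker activator than JUN at many AP-1 sites. Junb signals were 6.43, 5.91, 6.19 and 6.78 in wild type and 6.22, 6.54, 5.81 and 6.13 in miR-100 arrays, with the groups interleaved. The difference was -0.15 (SE 0.21, 95% confidence interval -0.60 to 0.29, limma adjusted p = 0.923). Jund, the remaining JUN gene, is not among the 10 and is named after its values were seen. It differed by -0.08 (SE 0.23, limma adjusted p = 0.968).

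**Figure D2:**
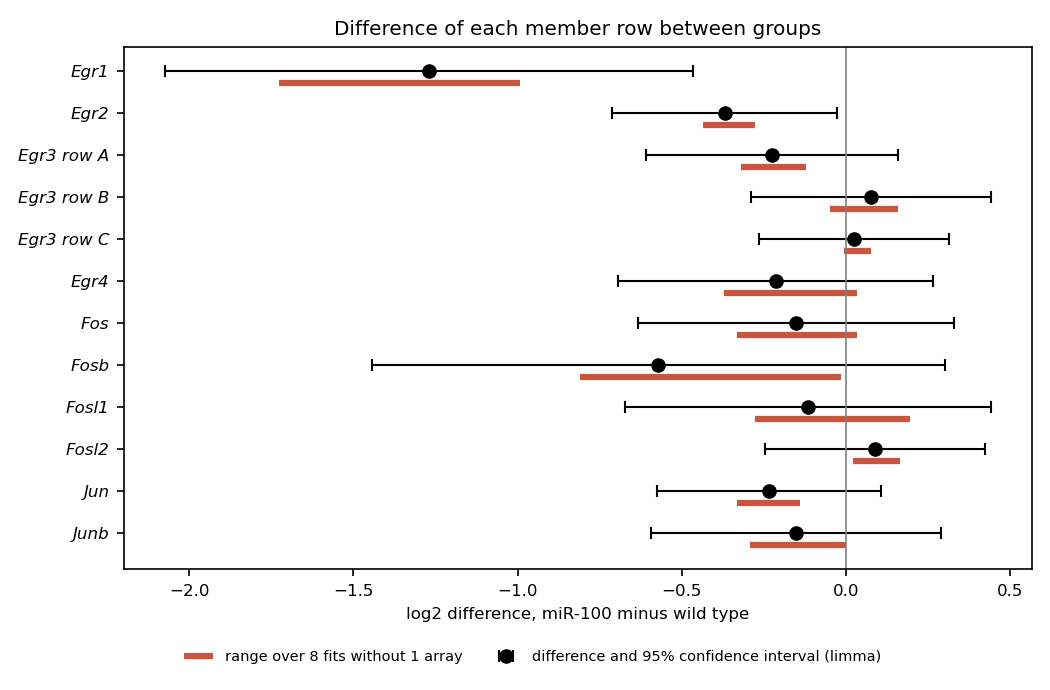
Log2 difference, miR-100 minus wild type, of each row with its 95% confidence interval (black, limma, n = 4 each) and the range over the 8 fits that each left out 1 array (red). The Egr1 and Egr2 intervals lie below 0, from -2.07 to -0.47 and from -0.71 to -0.03, without adjustment for the rows tested, and those of the other 10 rows include 0.

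By family, 4 of the 6 EGR rows, 3 of the 4 FOS rows and 2 of the 2 JUN rows had differences below 0. Their median differences were -0.22, -0.14 and -0.19, and over the 12 rows it was -0.18, against -0.02 over all rows of the table. None of these rows passed, so the signs describe the means alone.

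Some members had a wide spread between arrays. The SD within groups, pooled over both, was 0.73 for Egr1, 0.80 for Fosb and 0.47 for Fosl1, against a median of 0.25 over all rows. These stood at percentiles 99.6, 99.7 and 96.1 of all rows, and at 99.6, 99.4 and 94.4 among the 500 rows nearest in mean signal. Fos, Egr4 and Junb followed, with SDs of 0.38, 0.38 and 0.34 at percentiles 88.0, 87.5 and 79.4. The remaining rows were unremarkable in spread, with Egr2, Fosl2 and Jun at percentiles 29.3, 25.7 and 29.0 and the Egr3 rows at 55.4, 44.8 and 1.70.

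The spreads of Egr1, Fosb, Fosl1 and Egr4 each narrowed without a single wild type array. The SD of Egr1 was 0.37 without wild type replicate 3, that of Fosb 0.16 and that of Fosl1 0.17 without wild type replicate 2, and that of Egr4 0.15 without wild type replicate 1. Fos differed from these, with a larger SD in miR-100 arrays (0.48) than in wild type (0.25), and its pooled SD was lowest, at 0.31, without miR-100 replicate 2. The SD was larger in wild type than in miR-100 arrays for 9 of the 12 rows, against 57.7% of all rows, and this difference in spread was not tested.

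**Figure D3:**
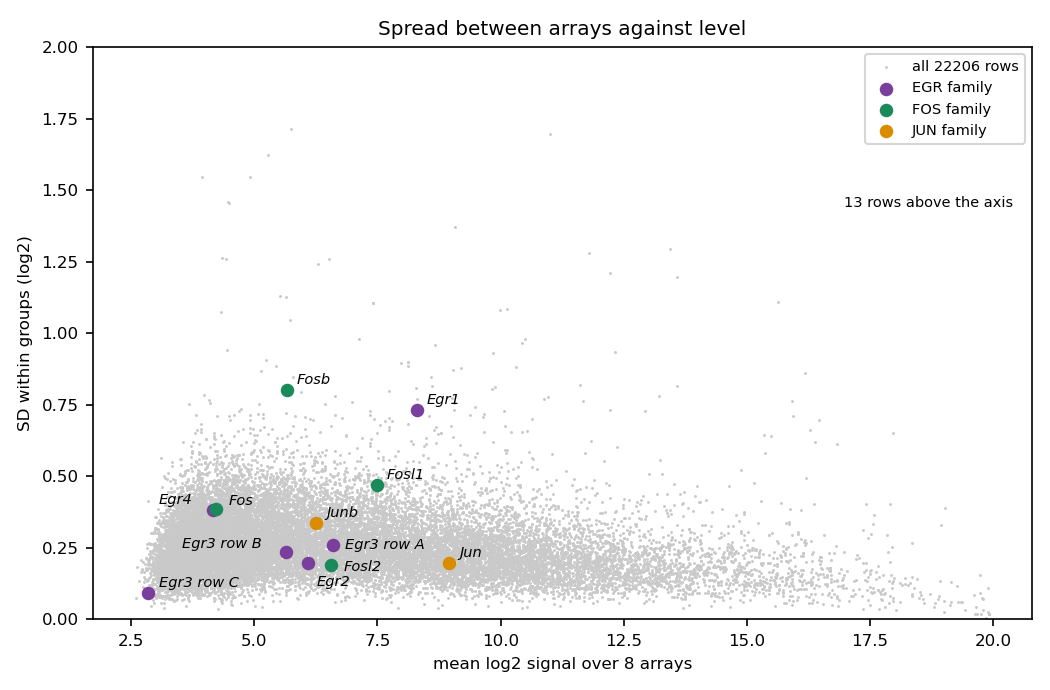
SD within groups (log2, pooled over both groups) against the mean log2 signal over 8 arrays, with all 22206 rows in grey and the 12 rows coloured by family. Fosb (0.80), Egr1 (0.73) and Fosl1 (0.47) lie above most rows of like mean, and row C of Egr3 lies at the dim end (mean 2.85).

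The other 11 rows were each set against Fos, itself a dim row, over the 8 arrays, and 0 passed after Benjamini-Hochberg adjustment. Pairs of members without Fos were not tested. Egr1 had Pearson's r = 0.45 (exact permutation p = 0.273, adjusted p = 0.980) and Spearman's rho = 0.40 (exact permutation p = 0.327, adjusted p = 0.886). Without miR-100 replicates 2 and 3, the arrays farthest from the Fos median, r was 0.26. For Fosb r was 0.22 (exact permutation p = 0.679) and rho 0.14 (exact permutation p = 0.752), with r = 0.13 without those arrays.

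For Junb the coefficients with Fos were r = 0.06 (exact permutation p = 0.884) and rho = 0.14 (exact permutation p = 0.752), and 0.22 without those arrays. For Jun they were r = 0.01 (exact permutation p = 0.980) and rho = -0.26 (exact permutation p = 0.536), and -0.18 without them. Fosl2 and row C of Egr3 had the most negative Pearson coefficients over all 8 arrays. By Spearman's rho row C was again the most negative row, but Fosl2 was not next to it. Without those arrays both coefficients were more negative still, but those of Egr2 and row A of Egr3 were the lowest. For Fosl2 r was -0.45 (exact permutation p = 0.266) and rho -0.24 (exact permutation p = 0.564), with r = -0.50 without those arrays. For row C r was -0.42 (exact permutation p = 0.296) and rho -0.67 (exact permutation p = 0.0765), with r = -0.76 without them. Leaving out those arrays moved Egr2 from r = 0.14 to -0.86 and row A of Egr3 from -0.19 to -0.79. Over all 8 arrays r was 0.30 for Fosl1, -0.08 for Egr4 and -0.06 for row B of Egr3. The adjusted Pearson p was 0.980 for each of the 11 rows, and adjusted Spearman p ran from 0.841 upward.

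Among the 18580 rows with a symbol that were neither members nor predicted loci, those most like Fos over the 8 arrays were Vmn1r73, Wdr20, Myl10, Tagln3 and Nr4a2, with Pearson's r of 0.97, 0.96, 0.95, 0.94 and 0.93. The closest, Vmn1r73, was dim, with a row mean of 4.82 under the olfactory receptor 95th percentile of 5.05, as was Fos at 4.22. Nr4a2, an orphan nuclear receptor gene, is itself an early response gene, and its signals ran from 4.83 to 5.68. Why these rows followed Fos was not tested. Those most like Egr1 were Gpcpd1, N4bp2l2, Nudt12, Tyms and Prpf6, with r from 0.97 to 0.95. Gpcpd1, a glycerophosphocholine phosphodiesterase gene, differed by -0.53 between groups and Tyms, the thymidylate synthase gene, by -0.58, with limma adjusted p of 0.428 and 0.470. Those most like Junb were Snx1, Eid2b, Ppil1, Pdzd11 and Wfdc18, with r from 0.97 to 0.96. With 8 shared arrays high values are common. An r above 0.8 was reached by 105 rows with Fos, 214 with Egr1 and 229 with Junb.

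The wider early response was described over 43 other genes, all measured, of which 0 passed (limma), while 8 had an unadjusted p under 0.05. That is 18.6%, against 7.73% of all rows, with 5 lower and 3 higher in miR-100 hearts. The list's median difference was -0.02, like that of all rows, and 26 of its genes lay below 0 and 17 above.

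Hbegf, which encodes a growth factor that activates the epidermal growth factor receptor, had the lowest unadjusted p of these genes. Its log2 signals were 6.05, 6.05, 5.61 and 5.79 in wild type and 5.01, 5.40, 5.22 and 5.45 in miR-100 arrays, with no overlap. The difference was -0.61 (SE 0.16, limma unadjusted p = 0.00238, adjusted p = 0.262). Sgk1, a kinase gene driven by corticosteroids and serum, differed by -0.94 (SE 0.28, limma adjusted p = 0.345), with wild type replicate 2 (8.95) inside the miR-100 range.

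Zfp36 encodes tristetraprolin, which hastens the decay of many early transcripts. It had 7.32, 7.54, 8.07 and 8.63 in wild type and 7.0, 7.24, 7.29 and 6.79 in miR-100 arrays, a difference of -0.81 (SE 0.25, limma adjusted p = 0.355). Gadd45g, a growth arrest gene, differed by -0.62 (SE 0.19, limma adjusted p = 0.360). Dusp1, a phosphatase gene that shuts off the kinases upstream, was bright, at 15.63 ± 0.24 and 15.23 ± 0.14 (SD, n = 4 each), and differed by -0.41 (SE 0.16, limma adjusted p = 0.528). In 4 of the 43 genes the groups did not overlap, 9.30% against 4.54% of all rows, namely Hbegf, Zfp36, Gadd45g and Dusp4, all lower in miR-100 hearts. Dusp4 is named after its values were seen.

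**Figure D4:**
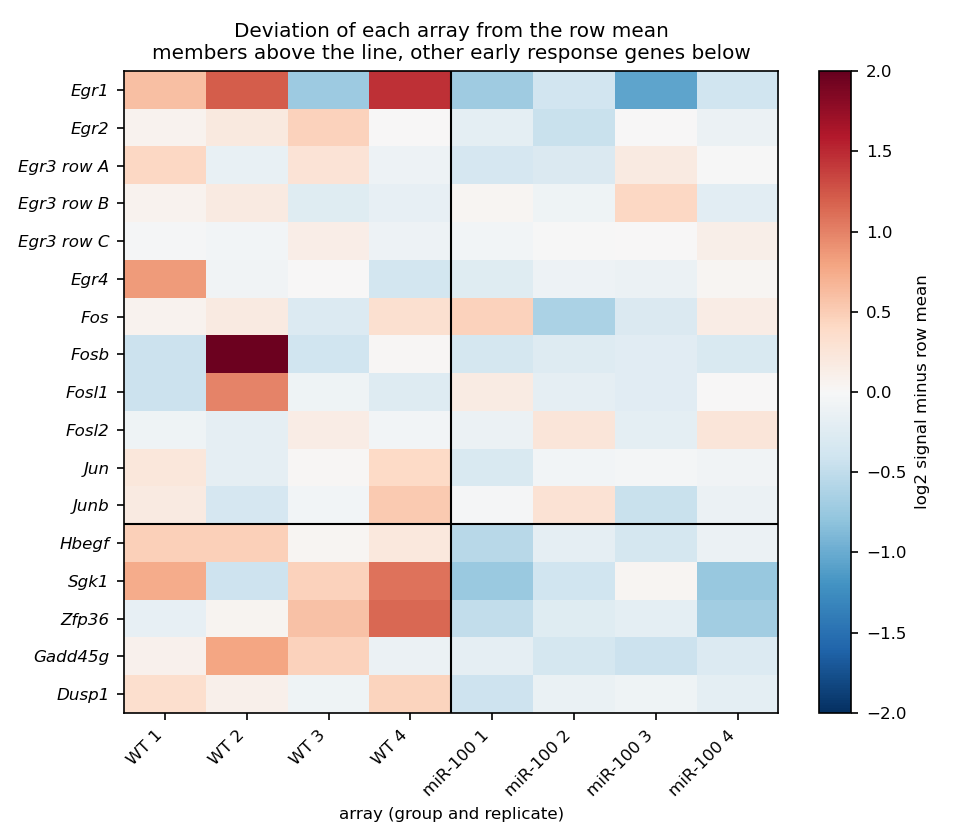
Log2 signal of each array minus the mean of its row, for the 12 rows and, below the line, the 5 other early response genes with the lowest unadjusted p. Egr1 is above its row mean in wild type replicates 1, 2 and 4 and below it in replicate 3, and Fosb in wild type replicate 2 is the darkest cell.

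Upstream of these promoters, 21 of 29 listed kinases and bound factors were measured and 0 passed (limma), with a median difference of 0.06 and 14 genes above 0. Map2k2, which encodes the kinase MEK2, differed by 0.48 (SE 0.19, limma adjusted p = 0.535), its isoform gene Map2k1 by 0.28, and Braf, a kinase gene one step above them, by -0.29. Srf, which encodes the serum response factor, had 9.56, 8.59, 9.42 and 9.44 in wild type and 9.65, 9.45, 9.96 and 9.48 in miR-100 arrays. Its difference of 0.38 (SE 0.21, limma adjusted p = 0.718) was 0.16 without wild type replicate 2. Mrtfa, a coactivator gene of SRF, was dim, at percentile 25.2 of all row means, and differed by 0.25 (limma adjusted p = 0.716).

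Among AP-1 partners and EGR corepressors, 8 of 9 genes were measured, 0 passed, and 0 had an unadjusted p under 0.05 (limma), with a median difference of -0.04. Batf3 and Batf, which encode partners of JUN proteins in immune cells, differed by 0.26 and 0.31, Batf2 by -0.09, and Jdp2, which encodes a repressive JUN partner, by -0.30. Nab1, a corepressor gene of EGR proteins, differed by 0.22 (SE 0.23), and by -0.03 without wild type replicate 2.

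Of 20 genes studied elsewhere as targets of AP-1 or EGR factors 17 were measured and 0 passed (limma), with a median difference of 0.01. At an unadjusted p under 0.05 (limma) there were 3 of the 17, 17.6% against 7.73% of all rows, with 2 lower and 1 higher. Mmp3, a matrix protease gene, had 4.91, 5.03, 5.05 and 4.90 in wild type and 4.88, 4.27, 4.31 and 4.24 in miR-100 arrays. Its difference was -0.55 (SE 0.17, limma adjusted p = 0.348). The row was dim, with group means of 4.97 and 4.43 under the olfactory receptor 95th percentile of 5.05. The adhesion receptor gene Cd44 differed by 0.78 (SE 0.26, limma adjusted p = 0.404), the quinone reductase gene Nqo1 by -0.44, the growth factor gene Pdgfa by -0.27 and the collagenase gene Mmp13 by -0.21.

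Of 11 heat shock genes, which cells also induce quickly under stress, 9 were measured and 0 passed (limma). Hsp90aa1, which encodes an inducible chaperone, had 12.55, 11.75, 12.53 and 12.88 in wild type and 13.27, 13.29, 13.39 and 13.09 in miR-100 arrays. Neither here nor in Hspa1a did the groups overlap, which is 22.2% of the 9 genes against 4.54% of all rows. At an unadjusted p under 0.05 (limma) there were 3 of the 9, 33.3% against 7.73% of all rows. The Hsp90aa1 difference was 0.83 (SE 0.21, limma adjusted p = 0.222). Hspa1a and Hspa1b, near-identical copies that probes may not tell apart, differed the other way, by -0.59 and -0.34, with limma adjusted p of 0.404 and 0.647. Hsph1 differed by 0.35 and Hspe1 by -0.13, so the list held differences of both signs around a median of -0.05.

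**Figure D5:**
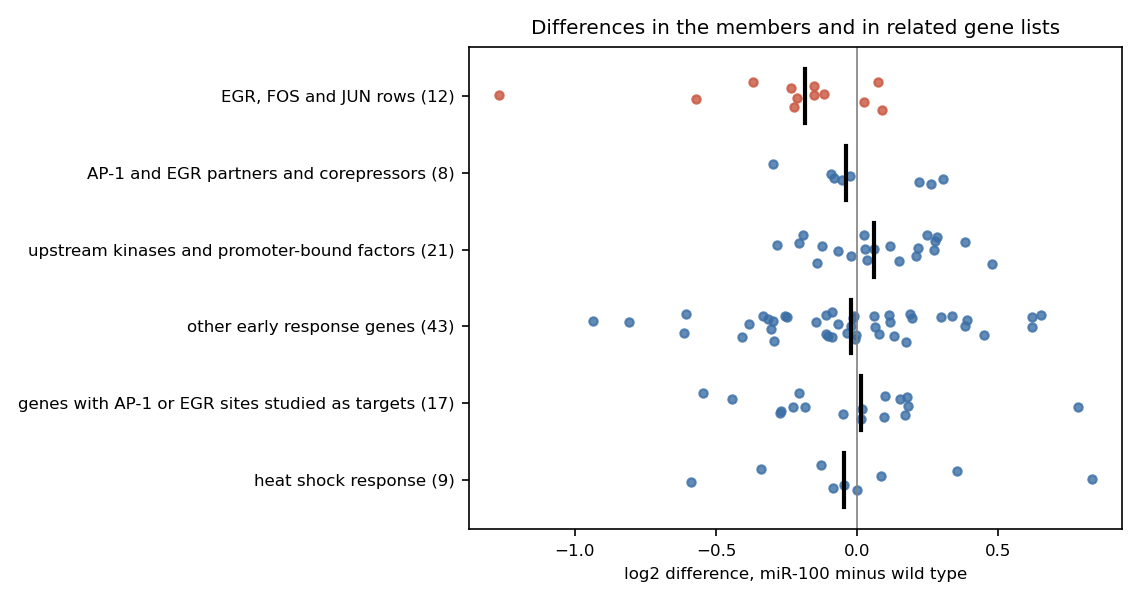
Log2 difference, miR-100 minus wild type, of the 12 rows (red) and of the measured genes in 5 related lists (blue, number of genes in brackets), with list medians as black bars. The medians lie between -0.18 and 0.06, Egr1 at -1.27 is the lowest point shown, and no point passed the threshold.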

How the data were processed

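The authors deposited log2 signals per transcript cluster, and the submitters' processing notes name Transcriptome Analysis Console 4.0. The summarization, the normalization and the build are each not given in the sources used here. Per the labels' protocols, RNA was extracted with TriPure and labelled with the Affymetrix WT Plus kit. Deposited values ran from 2.29 to 19.93 and were used as they stood. The platform annotation named 19572 of 22206 rows with 1 symbol, 0 with several and 2634 with none.

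Groups were compared with limma 3.58.1 in R 4.3.3 (linear models, empirical Bayes, no covariates), with Benjamini-Hochberg adjustment over all rows and a threshold of 0.05, after a test on simulated data. Exact permutation tests and correlations used Python 3.11.15. Differences are miR-100 minus wild type. Where a symbol in a list had several rows, the row with the highest mean stood for it.

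Named are all member rows, the 5 genes of each related list and the 1 marker gene of each cell type with the lowest unadjusted p, and the 5 rows most like Fos, Egr1 and Junb. The members and lists were chosen with earlier results of these data known. The marker genes were Myl3, Cldn5, Col1a2, Acta2, Fcgr1, Cd3d, S100a8, Alas2, Adipoq and Uchl1. Alternatives were an intensity trend, array weights, robust moderation, median centring, quantile normalization, filters on row means, named rows alone, a threshold of 0.1, a replicate block and leaving out each array.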

Additional observations from a re-analysis of the deposited data

Results flagged for a closer look

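Of 124 groups of 4 arrays, the member rows and other named genes in each genotype, 4 held an array far from the other 3 (gap to the nearest array over the group's range above 0.829). Chance alone gives about 1 in 20 such groups. Jun in miR-100 replicate 1 was 8.65, with 8.88 to 8.92 in the other miR-100 arrays. Srf in wild type replicate 2 was 8.59, with 9.42 to 9.56 in the other wild type arrays. Mmp3 in miR-100 replicate 1 was 4.88, with 4.24 to 4.31 in the others of its group. Mmp13 in wild type replicate 3 was 5.02, with 5.26 to 5.29 in the others of its group. The ratio for Fosb in wild type, 0.815, lay just under the limit.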

How the results depend on the processing

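Of 197 recomputed member differences, 190 kept their direction and their side of the threshold, 6 changed sign without passing, and 1 came to pass, that of Egr1 without wild type replicate 3. Filters on the row mean left out Egr4 and Egr3 row C at percentile 25, and also Fos, Fosb and Egr3 row B at percentile 50, which have no value there. Over the fits that left out an array, the count of members called ran from 0 to 1, Egr1 from -1.73 to -0.99, Egr3 row B from -0.05 to 0.16, row C from -0.0075 to 0.076, Egr4 from -0.37 to 0.034, Fos from -0.33 to 0.032 and Fosl1 from -0.28 to 0.20. The count over all rows, 31, was 65 with an intensity trend or at an adjusted p under 0.1 (limma), and 11 to 27 without an array. The median of the AP-1 and EGR target list ran from -0.10 to 0.071. Sign changes also came in Nab1 (from -0.033 to 0.39), Nr4a2 (from -0.25 to 0.03), Pdzd11 (from -0.14 to 0.038), Tagln3 (from -0.19 to 0.017) and Vmn1r73 (from -0.29 to 0.19). Correlations with Fos ran from -0.63 to 0.50 for Egr2, from -0.76 to 0.084 for Egr3 row A, from -0.24 to 0.30 for row B, from -0.43 to 0.075 for Egr4, from -0.39 to 0.41 for Jun, with -0.015 under quantile normalization, and from -0.25 to 0.47 for Junb. The causes were not tested. With the replicate number as a block, Egr1 had a limma adjusted p of 0.118 and 21 rows passed, 0 of them members. Same-numbered arrays did not deviate together (correlations of 0.0072, -0.060, 0.066 and -0.024), and 3 of the 8 arrays correlated best with their own number, so the block is not read as pairing. Other scalings moved the median of all rows by under 0.1.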

Other observations

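Among marker genes of other cell types, the lowest unadjusted p was that of Acta2, a smooth muscle actin gene that the fetal ventricle also expresses, with a difference of 1.11 (SE 0.27). Its log2 signals were 12.86, 12.71, 12.72 and 12.61 in wild type and 13.74, 14.01, 14.66 and 12.94 in miR-100 arrays, with no overlap and a limma adjusted p of 0.203. Without miR-100 replicate 4 it differed by 1.41 and passed (limma adjusted p = 0.0442). Of the 10 smooth muscle and pericyte genes, 6 lay above 0 and 4 below, with a median of 0.04. The lowest unadjusted p of the other lists were those of Cldn5 of endothelium (0.55), Uchl1 of nerve (0.50), Adipoq of fat (0.43), Cd3d of lymphocytes (0.28), Alas2 of erythroid cells (-0.20), Fcgr1 of macrophages (-0.24), Myl3 of heart muscle (-0.28), Col1a2 of fibroblasts (-0.37) and S100a8 of neutrophils (-0.37). None of these passed (limma), and 1 marker picked by its p does not stand for its list. Genes above and below 0 numbered 4 and 5 for endothelium, 3 and 3 for nerve and 5 and 4 for fat and mesothelium. They numbered 3 and 6 for lymphocytes, 0 and 3 for erythroid cells and 5 and 6 for macrophages. For heart muscle they were 4 and 6, and for fibroblasts and for neutrophils 4 and 5. Adipoq and S100a8 were dim, at percentiles 15.0 and 4.44 of all row means.

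Early response genes that lay higher in miR-100 hearts at an unadjusted p under 0.05 were Plk2, Klf10 and Zfp36l1, all named after their values were seen. Plk2, a stress-induced kinase gene, had 8.96, 8.28, 7.51 and 8.58 in wild type and 8.94, 9.31, 8.76 and 8.92 in miR-100 arrays, a difference of 0.65. Klf10, a transforming growth factor beta early response gene, differed by 0.62, with miR-100 replicate 2 (7.82) above the rest of its group (6.46 to 6.93). Zfp36l1, a relative of Zfp36, differed by 0.39, opposite in sign to Zfp36.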
